A study of Mus musculus with 12 samples.

Results

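The subject is a set of 36 genes of glucose uptake, glycolysis, lactate handling and the response to low oxygen, measured by RNA sequencing in limb mesenchyme of mouse embryos at E14.5. The genes were chosen by name from textbook knowledge of these pathways, with earlier results of these data known. They were matched by symbol to the table's Ensembl identifiers. All 36 were found among the 54532 genes listed, and all 36 had a normalised read count of at least 10 in each of the 12 libraries, so every one of them is among the 16733 genes tested. They fall into 7 roles: glucose transporters, hexokinases with phosphoglucose isomerase, phosphofructokinases with their regulators, the enzymes of lower glycolysis, lactate and pyruvate handling, hypoxia-inducible factors with prolyl hydroxylases, and targets of the hypoxia response.

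There were 6 iCreb5 and 6 tdTomato libraries. The iCreb5 cells carried Prrx1-Cre and a Rosa26 allele that, once a loxP-flanked stop is removed, expresses bovine Creb5 with an HA tag, followed by an ires and GFP. The tdTomato cells carried Prrx1-Cre and a Rosa26 allele that is opened in the same way and expresses the red fluorescent protein tdTomato. Both groups came from matings of Prrx1-Cre males with females that held both Rosa26 alleles, so both express Cre and a fluorescent reporter. Prrx1-Cre is active in limb bud mesenchyme, and Creb5 is a transcription factor of the CREB/ATF family. Fluorescent cells were sorted, with about 250K to 500K cells in a sample, and polyA RNA was sequenced.

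Litter 3 gave 3 libraries to each group (3a, 3b and 3c in both). Litters 4, 5 and 6 gave 1 library each to each group (4a, 5 and 6 in iCreb5, and 4a, 5b and 6d in tdTomato). The labels mark 4 litters, whereas the design text speaks of 6. Batch labels follow the litters 1 to 1, and batch cannot be told apart from litter. The sources used here do not say if 1 embryo or several made up a library, so p-values measure the spread between the 12 libraries only.

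Glycolysis splits glucose to pyruvate, and lactate dehydrogenase turns pyruvate into lactate where oxygen is short or growth is fast. Monocarboxylate transporters carry the lactate out of the cell. In low oxygen the prolyl hydroxylases no longer mark the alpha subunits of the hypoxia-inducible factors for destruction, and the factors then raise transcription of glucose transporters, most glycolytic enzymes and genes such as *Car9*, *Vegfa* and *Bnip3*. Limb cartilage has no blood vessels, and its chondrocytes are known to depend on *Hif1a* and on glycolysis.

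Recovered depth ran from 21.6 to 49.2 M reads in iCreb5 libraries and from 9.02 to 53.3 M reads in tdTomato libraries (M for 1000000). A count of 3 reads was worth between 1.48 and 8.38 normalised counts, which lies below every value of the 36 genes. Mouse *Creb5* read 2555 to 3162 normalised counts in iCreb5 libraries and 1470.5 to 2217 in tdTomato libraries. The sources used here do not say how reads of the bovine transgene were treated. The limb mesenchyme list of 8 markers (*Prrx1*, *Prrx2*, *Twist1*, *Pdgfra*, *Col1a1*, *Col1a2*, *Col3a1* and *Dcn*) summed to between 367234 and 715607 normalised counts in iCreb5 libraries and between 360557 and 702295 in tdTomato libraries, and none of the 8 passed the test. Marker sums of cartilage, leukocytes, endothelium and neurons did differ between groups, though only some endothelial and neuron markers passed the test. Their values are given below.

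Of the 36 genes, 4 fell in iCreb5 cells and 32 did not pass the test, in a fit of all 12 libraries with no litter term. The 4 were *Car9*, a cell surface carbonic anhydrase, *Aldoc*, an aldolase of the middle of glycolysis, and the lactate transporters *Slc16a3* (MCT4) and *Slc16a1* (MCT1). The test was limma on log2(normalised count + 1), two-sided, with Benjamini-Hochberg adjustment over all 16733 genes and a threshold of 0.05, and every adjusted p below is from it unless another tool is named. Over all genes tested, 2.85% were lower and 3.87% higher in iCreb5 by this rule, so 4 of 36 lower, 11.1%, stands beside 2.85%, and 0 of 36 higher beside 3.87%. At an unadjusted p under 0.05 there were 9 lower and 1 higher, where 8.27% of all genes were lower and 9.93% higher. edgeR called 4 of the 36 lower and 0 higher, where 2.81% of all genes were lower and 3.83% higher. DESeq2 called 5 lower and 0 higher, where 4.27% of all genes were lower and 5.51% higher, and the added gene was the glucose transporter *Slc2a1*. These fits take the 12 libraries as independent, although litter 3 gave 3 to each group. With litter as a block and litter 3 averaged, so that each litter counted once, 2 of 36 were lower, *Slc2a1* and *Slc16a1*. By that fit 2.4% of all genes were lower.

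Over the whole set more changes were negative than positive. Its median log2 change was −0.11, against 0.00 over all genes tested. Of the 36 changes 25 were negative, 69.4%, against 49.4% of all genes tested. When libraries were scaled to equal totals instead, 21 of 36 were negative, the median of the set was −0.04 and that of all genes was 0.07. The share of all genes with a negative change was not computed for that scaling. That scaling called 3 of the 36 lower (2.28% of all genes) and 0 higher (4.77%), and moved the split over all genes to 799 higher and 382 lower, against 648 higher and 477 lower as deposited. The share of all summed normalised counts taken by the 36 genes was 0.861 to 1.01% in iCreb5 libraries and 0.921 to 1.12% in tdTomato libraries, so the ranges overlapped.

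**Figure D1:**
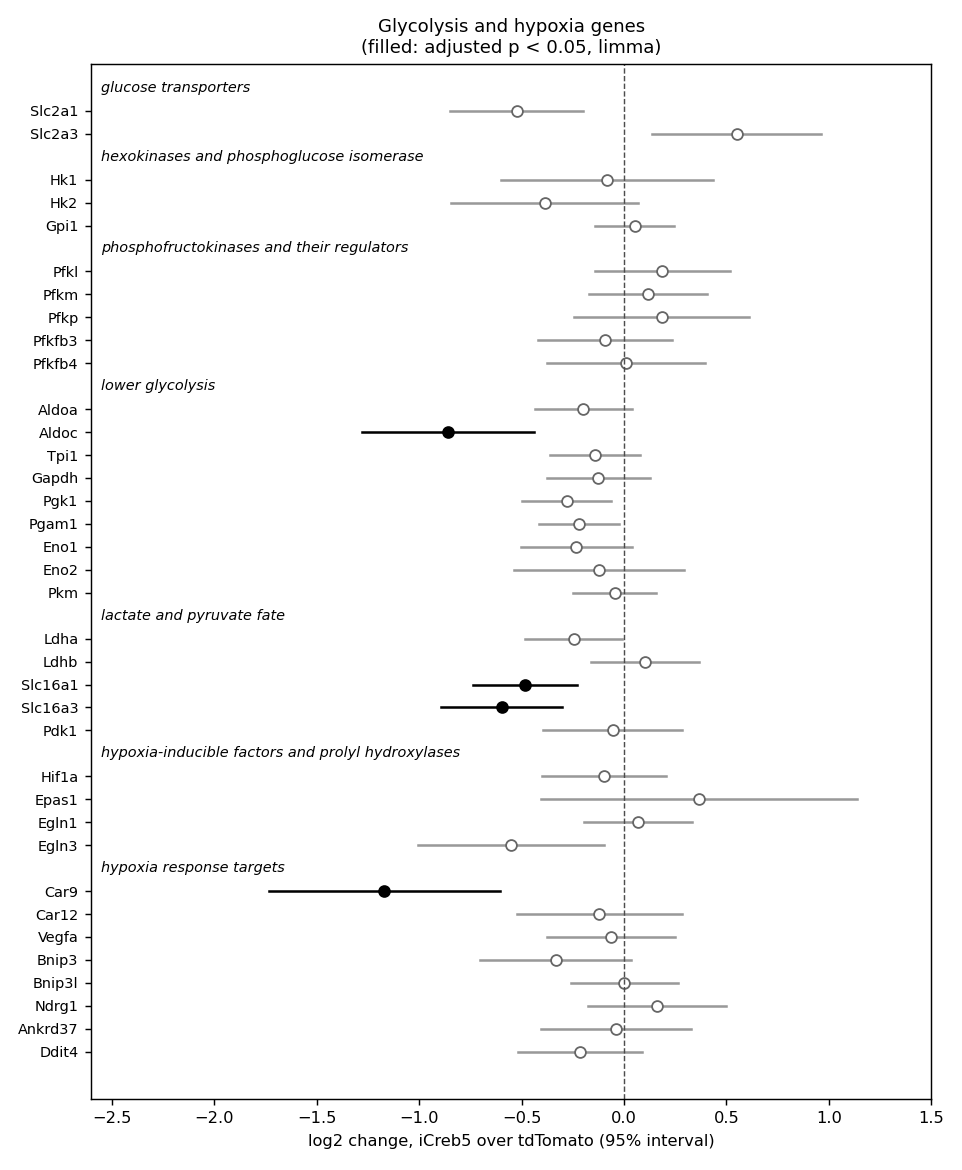
Log2 change of each of the 36 genes, iCreb5 over tdTomato, with its 95% interval from limma (6 libraries a group), ordered by role; filled points have an adjusted p under 0.05. The fit has no litter term. *Car9*, *Aldoc*, *Slc16a3* and *Slc16a1* are the filled points, at −1.17, −0.86, −0.60 and −0.48. All 9 genes of lower glycolysis lie left of 0, though *Pkm* was at 0.02 with equal totals. Over all genes tested, 49.4% had a negative change.

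*Car9* had the largest change of the set. CAR9 hydrates carbon dioxide at the outer cell surface and is a standard marker of hypoxic tissue. The gene (ENSMUSG00000028463) lies at chr4:43506966-43513729 on the plus strand of mm10. Its normalised counts in iCreb5 libraries were 63.2, 83.9 and 51.1 in litter 3 and 84.0, 81.5 and 98.7 in litters 4, 5 and 6. In tdTomato libraries they were 154, 219 and 237 in litter 3 and 270.1, 97.4 and 118 in litters 4, 5 and 6. The highest iCreb5 library, of litter 6, lay just above the lowest tdTomato library, of litter 5, and that was the sole point of overlap. The log2 change was −1.17 ± 0.27 (SE, n = 6 a group, adjusted p = 0.0122, limma), or 2.25-fold higher in tdTomato. The antisense gene *Gm12454* overlaps *Car9*, with means of 81.7 in iCreb5 and 65.8 in tdTomato. No source used here states whether counting used strand, so reads of the pair cannot be told apart.

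*Aldoc* encodes aldolase C, the brain-type form of the enzyme that splits fructose bisphosphate. It (ENSMUSG00000017390) lies at chr11:78322968-78327781 on the plus strand. The iCreb5 libraries read 207, 226 and 184 normalised counts in litter 3 and 283, 274 and 274 in litters 4, 5 and 6. The tdTomato libraries read 424, 644 and 581 in litter 3 and 407, 359 and 285 in litters 4, 5 and 6. The groups did not overlap, though the closest pair was 283 in iCreb5 and 285 in tdTomato. This amounted to a log2 change of −0.86 ± 0.20 (SE, n = 6 a group, adjusted p = 0.0133, limma). Over all genes tested, 1.92% had every iCreb5 library below every tdTomato library, and 2 of the 36 genes did, *Aldoc* and *Slc16a3*. The reverse held for 2.83% of all genes and for 0 of the 36.

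*Slc16a3* encodes MCT4, the lactate exporter of strongly glycolytic cells. It (ENSMUSG00000025161) lies at chr11:120948480-120960868 on the plus strand. The iCreb5 libraries read 1504, 1724 and 1814 normalised counts in litter 3 and 2127, 2216 and 2221 in litters 4, 5 and 6. The tdTomato libraries read 2312, 3361 and 3566 in litter 3 and 3353, 2434 and 2616 in litters 4, 5 and 6. Every iCreb5 library lay below every tdTomato library, and the iCreb5 libraries of litter 3 were the lowest. The resulting log2 change was −0.60 ± 0.14 (SE, n = 6 a group, adjusted p = 0.0150, limma).

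*Slc16a1* encodes MCT1, a transporter of lactate and pyruvate found in most tissues. It (ENSMUSG00000032902) lies at chr3:104638668-104658462 on the plus strand. The iCreb5 libraries read 2565, 2180.5 and 2304 normalised counts in litter 3 and 1959.6, 1925 and 2659 in litters 4, 5 and 6. The tdTomato libraries read 3540.2, 2638 and 3507 in litter 3 and 3441, 2641 and 3223 in litters 4, 5 and 6. The iCreb5 library of litter 6 stood just above the tdTomato libraries 3b and 5b, and the other 5 iCreb5 libraries lay below all tdTomato libraries. On the log2 scale the change was −0.48 ± 0.12 (SE, n = 6 a group, adjusted p = 0.0209, limma). This call was close to the threshold: the adjusted p was 0.0672 with equal totals, 0.0502 without iCreb5 3b, 0.0553 without iCreb5 4a, 0.0518 without tdTomato 3c and 0.0542 without tdTomato 4a. With the litter block and litter 3 averaged, *Slc16a1* still passed, whereas *Car9* (0.117), *Aldoc* (0.170) and *Slc16a3* (0.0845) did not.

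**Figure D2:**
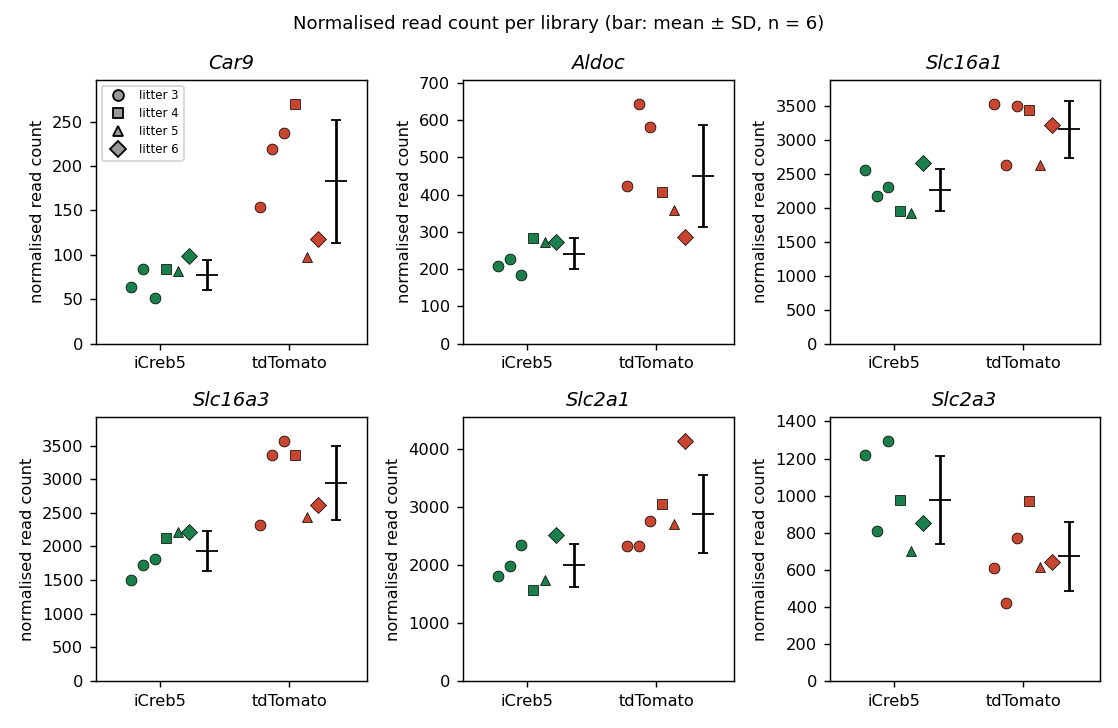
Normalised read count in each library for the 4 genes that fell and the glucose transporters *Slc2a1* and *Slc2a3*; green points are iCreb5, red points tdTomato, shapes mark the litter, and bars give the mean ± SD of 6 libraries. *Aldoc* and *Slc16a3* separate the groups fully, and *Car9* in tdTomato spreads from 97.4 to 270.1.

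A stretch before a RefSeq transcript start of each of these 4 genes is printed because hypoxia-inducible factors are known to bind the short core ACGTG or GCGTG, and a CREB/ATF protein such as Creb5 the CRE (TGACGTCA) or AP-1 (TGANTCA) motif. Sequences are from RefSeq's promoter table on GRCm38.p6, 5′ to 3′ on the plus strand, cut where a GENCODE exon begins. For *Slc16a3* the window lies wholly inside the gene, since GENCODE has a further transcript that starts upstream. Capitals mark a match to 1 of these 4 motifs on either strand, so that CACGT and CACGC stand for the cores on the other strand, and the palindrome CACGTG holds ACGTG on both. Windows are chr4:43506776-43506965 for *Car9*, chr11:78322823-78322967 for the first start of *Aldoc*, chr11:120948817-120949052 for *Slc16a3* and chr3:104638414-104638663 for *Slc16a1*.
Car9: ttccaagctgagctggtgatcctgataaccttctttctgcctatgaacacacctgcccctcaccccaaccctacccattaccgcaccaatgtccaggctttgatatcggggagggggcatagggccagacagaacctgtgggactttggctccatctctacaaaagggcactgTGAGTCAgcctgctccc
Aldoc: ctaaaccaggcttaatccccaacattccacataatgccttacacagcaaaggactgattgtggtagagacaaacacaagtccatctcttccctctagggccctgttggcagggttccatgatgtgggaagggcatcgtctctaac
Slc16a3: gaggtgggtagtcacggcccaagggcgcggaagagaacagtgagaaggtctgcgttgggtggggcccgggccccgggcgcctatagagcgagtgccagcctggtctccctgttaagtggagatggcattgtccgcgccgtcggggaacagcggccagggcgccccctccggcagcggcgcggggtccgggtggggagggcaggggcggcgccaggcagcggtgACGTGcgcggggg
Slc16a1: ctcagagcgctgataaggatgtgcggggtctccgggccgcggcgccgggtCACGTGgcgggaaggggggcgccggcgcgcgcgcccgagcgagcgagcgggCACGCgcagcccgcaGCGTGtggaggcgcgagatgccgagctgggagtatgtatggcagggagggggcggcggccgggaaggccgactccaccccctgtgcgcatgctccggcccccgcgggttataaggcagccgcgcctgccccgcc

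In *Car9*, *Aldoc* and *Slc16a3* a core lies inside a GENCODE exon, for *Slc16a3* that of an alternative start, and a short site around it is given. The sites are chr4:43507000-43507020 for *Car9*, chr11:78323015-78323035 for *Aldoc* and chr11:120949045-120949065 for *Slc16a3*.
Car9 site: ttccgatgCACGTacagcccg
Aldoc site: ctctgaggGCGTGgccttacc
Slc16a3 site: cgcgggggACGTGccgcgcga

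In *Car9* the core ACGTG lay on the minus strand at position −18 from the RefSeq start, and the AP-1 motif TGAGTCA at −77. *Aldoc* had GCGTG at −50 before its first start. *Slc16a3* had ACGTG at −27 and −14. *Slc16a1* had the palindrome CACGTG from −200, and GCGTG on the minus strand at −149 and on the plus strand at −134. No CRE was found in these windows.

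Over the set, 32 of the 36 genes were matched in the table, with 46 windows of 250 bases before a start. *Slc2a3*, *Epas1*, *Bnip3l* and *Ndrg1* were not matched. ACGTG or GCGTG was present in 36 of the 46 windows, 78.3%, against 38.6% of all 32851 windows. The set's windows were also richer in G and C, with a median of 60.4% against 52.4%, and in CG dinucleotides, with a median of 14 against 6. Each core holds a CG, and the part of base composition in the share was not tested. The 4 genes that fell had a core in 5 of 5 windows, and the other matched genes in 31 of 41, 75.6%. The median of CG dinucleotides was 5 in the windows of the 4 genes and 14 in the others. Some windows of the same gene overlap, as for *Eno1* and *Pfkm*, so windows are not independent. By gene, 28 of the 32 matched had a core, and no share by gene was computed over all genes. The CRE was in 1 of 46 windows, 2.17%, a start of *Ldha*, against 1.55% of all windows, and the AP-1 motif in 2 of 46, 4.35%, *Car9* and a start of *Aldoa*, against 6.75%. For this *Ldha* start, the bases after it were not found in the gene's GENCODE transcripts. The same held for a start of *Hif1a*, *Pfkm*, *Pgam1* and *Vegfa*.

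The size of the fall was read within litters as well. Within litter 3, with 3 libraries a group, the log2 change was −1.61 for *Car9*, −1.40 for *Aldoc*, −0.85 for *Slc16a3* and −0.45 for *Slc16a1*. Within litters 4 to 6, with litter as a term, it was −0.73, −0.32, −0.34 and −0.52 in the same order. Litter 3 alone called *Aldoc* (adjusted p = 0.00792), *Car9* (0.0162) and *Slc16a3* (0.0327), and also *Bnip3* (0.0460), where 1.75% of all genes were lower. Litters 4 to 6 alone called none of the 4 (adjusted p = 0.302 for *Car9*, 0.436 for *Aldoc*, 0.217 for *Slc16a3* and 0.0748 for *Slc16a1*), and called 1 gene of the set, *Slc2a1* (0.0108), where 2.2% of all genes were lower. The iCreb5 mean lay below the tdTomato value in each of the 4 litters for all 4 genes.

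With litter as a replicate block over all 12 libraries, the 4 genes and *Slc2a1* were lower, 5 of 36, where 4.35% of all genes were. With the 3 libraries of litter 3 averaged first, so that each litter counted once, 2 of 36 were lower, *Slc2a1* (adjusted p = 0.0152) and *Slc16a1* (0.0356), where 2.4% of all genes were. In that fit *Car9* had an adjusted p of 0.117, *Aldoc* 0.170 and *Slc16a3* 0.0845. Leaving out tdTomato 3a, the shallowest library, and tdTomato 5b, the one with the largest mitochondrial share (2.37%), gave 4 of 36 lower, where 2.55% of all genes were. Leaving out iCreb5 5 and 6 also gave 4, where 2.98% of all genes were.

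The difference between the litter sets was tested directly as an interaction in limma. It was called for 0 of 16733 genes (0%), with 1500 at an unadjusted p under 0.05. Among the 36 genes 6 had an unadjusted p under 0.05 and the smallest adjusted p was 0.501. Those 6 were *Aldoc* (unadjusted p = 0.00291), *Bnip3* (0.00323), *Pfkm* (0.0216), *Slc2a1* (0.0246), *Pfkfb4* (0.0315) and *Hk2* (0.0335).

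**Figure D3:**
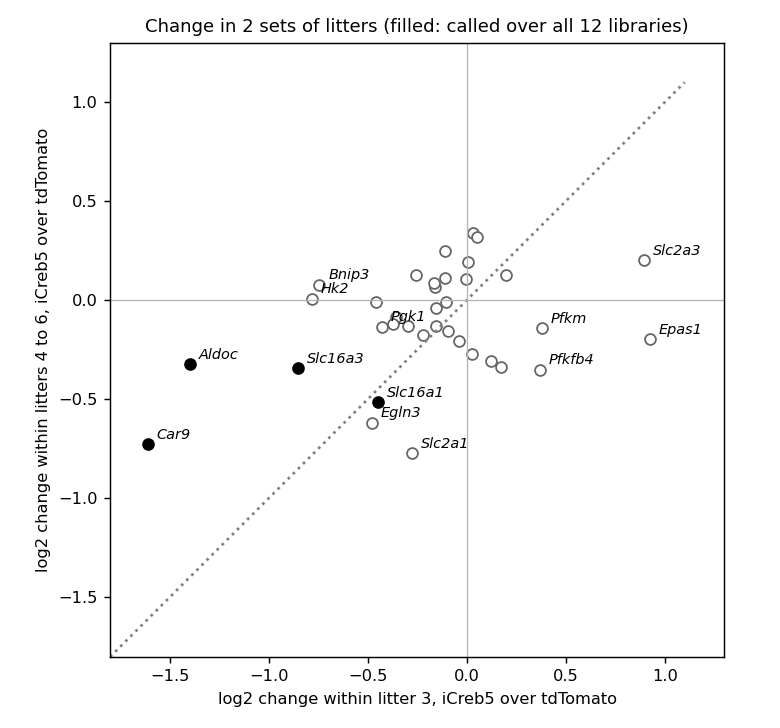
Log2 change, iCreb5 over tdTomato, within litter 3 (x axis, 3 libraries a group) and within litters 4 to 6 (y axis, 1 library a group in each litter) for the 36 genes; filled points are the genes called over all 12 libraries and the dotted line marks equal change. *Aldoc* and *Car9* lie well above the line, at −1.40 and −1.61 in litter 3 and −0.32 and −0.73 in litters 4 to 6, and *Slc16a1* lies near it.

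Cartilage markers, like these 4 genes, were lower in iCreb5 libraries. All 15 chondrocyte markers (*Col2a1*, *Acan*, *Sox9* and 12 more) fell, and their sum was 124462 to 165220 normalised counts in iCreb5 libraries, against 247673 to 502002 in tdTomato libraries (exact permutation p = 0.00216, two-sided, the smallest possible with 6 against 6). Of the hypertrophic chondrocyte and osteoblast list 8 of 9 tested markers fell, with sums of 3917 to 16481 in iCreb5 libraries and 14296 to 47782 in tdTomato libraries (exact permutation p = 0.00433). The permutations of marker sums, here and below, split the 12 libraries without regard to litter, and so took libraries of the same litter as independent. None of the markers in any list used here was at 0 in every library. Within groups the 4 genes went with the sum in some libraries and not in others, and no statistic of this was computed. Among tdTomato libraries, 3b, 3c and 4a had the highest chondrocyte sums and the highest *Slc16a3* and *Car9* values. *Aldoc* was lower in 4a than in 3a, and *Slc16a1* was lowest in 3b, which had the second-highest sum, and highest in 3a, which had the second-lowest. Among iCreb5 libraries, 5 had the lowest sum and the second-highest *Slc16a3*. The part of these markers in the fall of *Car9*, *Aldoc*, *Slc16a3* and *Slc16a1* was not tested. In bulk RNA, fewer cells of a type and less RNA of a gene per cell cannot be told apart.

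**Figure D4:**
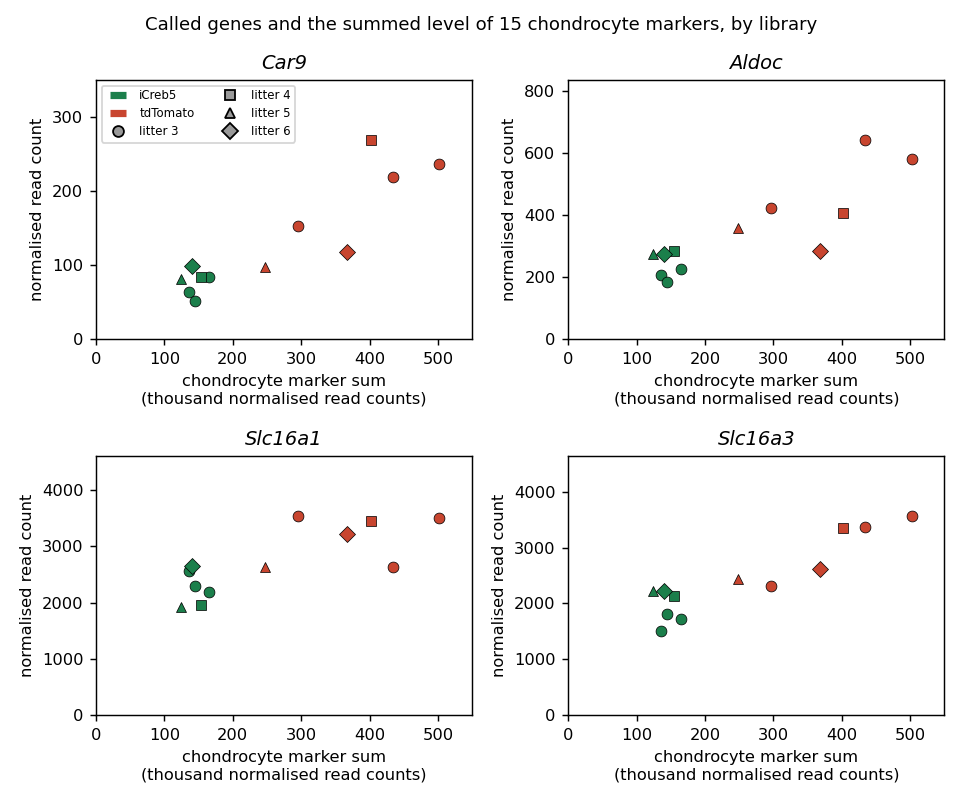
Normalised read count of *Car9*, *Aldoc*, *Slc16a1* and *Slc16a3* in each library against the summed normalised count of 15 chondrocyte markers; green is iCreb5, red tdTomato, and shapes mark the litter. The iCreb5 libraries have sums of 124462 to 165220 and the tdTomato libraries 247673 to 502002, with no overlap, so the group and the marker sum separate the points in the same way.

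Leukocyte markers went the other way: 14 of 14 rose, with sums of 2678 to 11995 in iCreb5 libraries and 653 to 1209 in tdTomato libraries (exact permutation p = 0.00216). Of the endothelial markers 5 of 9 rose, with sums of 2006 to 4585 in iCreb5 libraries and 1475 to 2052 in tdTomato libraries (exact permutation p = 0.00649). The neuron list had 2 of 7 tested markers higher (*Nefl* and *Nefm*) and 1 lower (*Stmn2*), with sums of 6229 to 10297 in iCreb5 libraries and 1424 to 2123 in tdTomato libraries (exact permutation p = 0.00216). No marker of red cells (7 tested), skeletal muscle (9) or epidermis (8) passed the test. Red cell sums spread from 4828 to 29626 in iCreb5 libraries and from 2353 to 38816 in tdTomato libraries, and were highest in litters 5 and 6.

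The glucose transporters differed in sign, and neither passed the test. *Slc2a1* encodes GLUT1, the basal glucose transporter and a known target of the hypoxia response. Its normalised counts in iCreb5 libraries were 1811, 1975 and 2335 in litter 3 and 1569, 1734 and 2521 in litters 4, 5 and 6. In tdTomato libraries they were 2320.1, 2330.0 and 2746 in litter 3 and 3050.1, 2708 and 4130.3 in litters 4, 5 and 6. The groups overlapped through iCreb5 3c and 6. The log2 change was −0.52 ± 0.15 (SE, n = 6 a group), with an adjusted p of 0.0524 in limma, 0.0542 in edgeR and 0.0183 in DESeq2. With litter as a replicate block it was 0.0124, and *Slc2a1* passed in 9 of the 26 alternatives run, among them without iCreb5 6 (0.0345), without tdTomato 3a (0.0458) and without tdTomato 3b (0.0457). Its change was −0.28 within litter 3 and −0.77 within litters 4 to 6.

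*Slc2a3* encodes GLUT3, a transporter of high glucose affinity best known in neurons and also present in leukocytes. It read 1221, 811 and 1294 normalised counts in litter 3 and 977, 703 and 852 in litters 4, 5 and 6 of iCreb5. In tdTomato it read 609, 422 and 773 in litter 3 and 971, 616 and 641 in litters 4, 5 and 6. The log2 change was 0.55 ± 0.19 (SE, n = 6 a group, adjusted p = 0.121, limma), the largest positive one of the set. Within litters it was 0.90 in litter 3 and 0.20 in litters 4 to 6.

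Set against each other per kilobase of the principal transcript, *Slc2a3* made up 21.8 to 35.7% of the pair's level in iCreb5 libraries, with a median of 28.3%, and 11.3 to 20.8% in tdTomato libraries, with a median of 16.8%. The ranges did not overlap. The same kind of share for *Hk2*, *Pfkl*, *Aldoc*, *Eno2*, *Ldhb* and *Slc16a3*, among related genes of the set, overlapped between groups. How often such shares separate the groups over all genes was not computed. Leukocyte and neuron marker sums were also higher in every iCreb5 library, though of 7 tested neuron markers only 2 were higher and 1 was lower. The part of these markers in the share of *Slc2a3* was not tested. The processed pseudogene *Gm4482* overlaps *Slc2a3* on the same strand, with means of 50.01 normalised counts in iCreb5 and 42.9 in tdTomato.

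Of the hexokinases and phosphoglucose isomerase, which open glycolysis, 0 of 3 passed the test. *Gpi1*, the isomerase, had the largest mean of the 3. It read 3877, 3872 and 4057 normalised counts in litter 3 and 4095, 4544 and 4836 in litters 4, 5 and 6 of iCreb5, against 3655, 4064 and 4136 in litter 3 and 4454, 4001 and 4024 in litters 4, 5 and 6 of tdTomato. The groups overlapped almost fully, and the log2 change was 0.05 (95% interval −0.14 to 0.25). *Hk1*, the hexokinase of most tissues, had a change of −0.08 (−0.60 to 0.44). *Hk2*, the hypoxia-responsive hexokinase, ran from 219.6 to 462 in iCreb5 and from 255 to 594 in tdTomato, with a change of −0.39 (−0.84 to 0.07). Its change was −0.78 within litter 3 and 0.01 within litters 4 to 6.

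Of the phosphofructokinases and the bifunctional enzymes that regulate them, 0 of 5 passed the test. *Pfkl*, the liver-type subunit, read 7407, 8517 and 7058 normalised counts in litter 3 and 9414, 6825 and 7197 in litters 4, 5 and 6 of iCreb5. In tdTomato it read 5927, 8727 and 8029 in litter 3 and 7858, 4275 and 6785 in litters 4, 5 and 6. The tdTomato library of litter 5 was the lowest, and the medians were close, 7302 in iCreb5 and 7321 in tdTomato. Log2 changes were 0.19 for *Pfkl*, 0.12 for the muscle-type *Pfkm*, 0.18 for the platelet-type *Pfkp*, −0.09 for *Pfkfb3* and 0.01 for *Pfkfb4*. Per kilobase, *Pfkl* made up 74.3 to 82.5% of the 3 subunits in iCreb5 libraries and 73.9 to 81.4% in tdTomato libraries. *Senp1* overlaps *Pfkm*, and *Pitrm1* overlaps *Pfkp*, each on the opposite strand.

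Lower glycolysis, the steps from aldolase to pyruvate kinase, had 9 genes with 9 negative changes, where 49.4% of all genes tested were negative. With equal totals, where the median over all genes was 0.07, 8 were negative and *Pkm* was at 0.02. Of the 9 genes, *Aldoc* passed the test. The other 8 changes ran from −0.28 for *Pgk1* to −0.04 for *Pkm*, and 7 of these 8 were also negative within both litter sets, the exception being *Pkm* at 0.07 within litters 4 to 6. With the litter 3 libraries averaged, *Pkm* was at 0.01. *Pgk1*, phosphoglycerate kinase, ran from 5765 to 7701 normalised counts in iCreb5 and from 6954 to 9127 in tdTomato (log2 change −0.28 ± 0.10, SE, n = 6 a group, adjusted p = 0.138, limma). *Pgam1*, phosphoglycerate mutase, ran from 10486 to 13022 in iCreb5 and from 12557 to 15084 in tdTomato (−0.22 ± 0.09, adjusted p = 0.203, limma).

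*Eno1*, the common enolase, had the largest mean of the role. It read 27488, 34849.6 and 29896 normalised counts in litter 3 and 39238, 41551 and 36869 in litters 4, 5 and 6 of iCreb5. In tdTomato it read 34302, 53502 and 40427 in litter 3 and 41319.9, 39971 and 37066 in litters 4, 5 and 6. The tdTomato library 3b stood far above the rest, and outside litter 3 the groups were interleaved. The log2 change was −0.23 ± 0.13 (SE, n = 6 a group, adjusted p = 0.363, limma), with −0.46 within litter 3 and −0.01 within litters 4 to 6.

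The remaining enzymes of this role did not pass the test. *Aldoa*, the common aldolase, had a log2 change of −0.20 (95% interval −0.43 to 0.04). *Tpi1*, triosephosphate isomerase, had −0.14 (−0.36 to 0.08), and *Gapdh*, glyceraldehyde phosphate dehydrogenase, −0.12 (−0.37 to 0.13). *Eno2*, the neuronal enolase, had −0.12 (−0.54 to 0.29), and *Pkm*, pyruvate kinase, −0.04 (−0.25 to 0.16).

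Per kilobase, *Aldoc* was a small part of the aldolase level, 0.788 to 1.06% of *Aldoa* and *Aldoc* together in iCreb5 libraries and 0.903 to 1.89% in tdTomato libraries. The sum over the 9 genes was 122495 to 155747 normalised counts in iCreb5 and 134809 to 181457 in tdTomato. Several of these genes, *Gapdh* among them, have processed pseudogenes, and how reads shared with such copies were counted is stated in no source used here. *Aldoa* has a second Ensembl identifier in the table, at 13.7 to 38.4 normalised counts, and the main one was used.

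Lactate and pyruvate handling held 2 of the 4 genes that fell, *Slc16a1* and *Slc16a3*, and 0 of its 5 genes rose. *Ldha*, the lactate dehydrogenase subunit that favours lactate, read 34989.6, 42453 and 34206 normalised counts in litter 3 and 43285, 42431 and 46269 in litters 4, 5 and 6 of iCreb5. In tdTomato it read 40927, 53957 and 49666 in litter 3 and 48779.8, 53916 and 41689 in litters 4, 5 and 6. In litter 6 the iCreb5 library was the higher one. The log2 change was −0.25 ± 0.11 (SE, n = 6 a group, adjusted p = 0.248, limma).

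*Ldhb*, the subunit that favours pyruvate, had a change of 0.10 (95% interval −0.16 to 0.36). Per kilobase it made up 11.03 to 15.6% of the pair in iCreb5 libraries and 10.4 to 11.7% in tdTomato libraries, with medians of 13.7% in iCreb5 and 10.8% in tdTomato and an overlap at the low end. *Pdk1*, the kinase that shuts pyruvate dehydrogenase in hypoxia, had a change of −0.06 (−0.40 to 0.28). *Slc16a3* made up 37.4 to 54.0% of the 2 lactate transporters per kilobase in iCreb5 libraries and 40.0 to 56.5% in tdTomato libraries, so the balance of the transporters overlapped between groups.

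The hypoxia-inducible factors and their prolyl hydroxylases had 0 of 4 genes past the test. *Hif1a*, the alpha subunit of the main factor, read 6851, 6449.5 and 6628 normalised counts in litter 3 and 6205, 4763 and 5790.5 in litters 4, 5 and 6 of iCreb5. In tdTomato it read 8373, 6043 and 8031 in litter 3 and 6302, 4500.2 and 6527 in litters 4, 5 and 6. Both groups were lowest in litter 5, and the groups overlapped, with a log2 change of −0.10 (95% interval −0.40 to 0.21). HIF1A is controlled mainly through its protein's stability, which these libraries do not measure.

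*Epas1*, the alpha subunit HIF2A, was expressed at 17.8 to 81.8 normalised counts in iCreb5 and 22.3 to 67.1 in tdTomato, with a change of 0.36 (−0.41 to 1.13). *Egln1*, the main oxygen-sensing hydroxylase PHD2, had a change of 0.07 (−0.20 to 0.33). *Egln3*, the hydroxylase PHD3 and itself a hypoxia target, ran from 95.9 to 199 in iCreb5 and from 139.6 to 267 in tdTomato. Its change was −0.55 ± 0.21 (SE, n = 6 a group, adjusted p = 0.166, limma), and the iCreb5 mean lay below the tdTomato value in 4 of 4 litters.

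Of the 8 hypoxia response targets, *Car9* fell and 7 did not pass the test. *Bnip3l*, a mitophagy receptor, had the largest mean of the role. It read 4515, 4923 and 4693 normalised counts in litter 3 and 4961, 6795 and 5893 in litters 4, 5 and 6 of iCreb5. In tdTomato it read 5634, 5045 and 4588 in litter 3 and 4912, 6708 and 4780.0 in litters 4, 5 and 6. The levels were interleaved and the change was 0.00 (95% interval −0.26 to 0.26). Its relative *Bnip3* ran from 3185 to 6005 in iCreb5 and from 3838 to 7176 in tdTomato. Its change was −0.33 ± 0.17 over all libraries (SE, n = 6 a group, adjusted p = 0.333, limma), −0.74 within litter 3 and 0.08 within litters 4 to 6.

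*Car12*, the second membrane carbonic anhydrase of hypoxic tissue, ran from 511 to 875 normalised counts in iCreb5 and from 444 to 919.6 in tdTomato, with a change of −0.12 (95% interval −0.52 to 0.28). *Vegfa*, the vessel growth factor, ran from 2333 to 3637 in iCreb5 and from 2046 to 3547 in tdTomato, with a change of −0.06 (−0.38 to 0.25). The change was 0.16 (−0.17 to 0.50) for *Ndrg1*, −0.04 (−0.41 to 0.33) for *Ankrd37* and −0.21 (−0.52 to 0.09) for *Ddit4*, an inhibitor of mTORC1 signalling. *Ufsp2* overlaps *Ankrd37* on the opposite strand.

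Genes of the same pathways outside the set included some that rose and some that fell. Of 34 other genes of glycolysis and pyruvate use, 27 could be tested. Of these 2 rose, 7.41%, and 1 fell, 3.70%, where 3.87% of all genes tested rose and 2.85% fell. The median change of the list was 0.02. *Slc2a4*, the insulin-responsive transporter GLUT4, read 451 to 661 normalised counts in iCreb5 and 279.9 to 429 in tdTomato (log2 change 0.61 ± 0.15, SE, n = 6 a group, adjusted p = 0.0229, limma), with no overlap. Its adjusted p was 0.050008 without iCreb5 3a, 0.0627 without iCreb5 3b, 0.0581 without iCreb5 3c, 0.0504 without iCreb5 4a and 0.0530 without tdTomato 3a. It was 0.106 with the litter block and litter 3 averaged, 0.269 in litters 4 to 6 alone and 0.0954 without tdTomato 3a and 5b. *Slc16a4*, a less studied monocarboxylate transporter, read 313 to 475 in iCreb5 and 579 to 849 in tdTomato, with no overlap and a change of −0.86 ± 0.15 (adjusted p = 0.00181, limma, and 0.0870 in litters 4 to 6 alone).

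*Hk3*, the hexokinase of myeloid cells, read 105, 56.3, 78.4, 31.2, 71.3 and 129 normalised counts in the iCreb5 libraries 3a to 6. It read 5.58, 9.39 and 13.7 in the tdTomato libraries of litter 3 and 0 in those of litters 4, 5 and 6. The log2 change on the scale of count + 1 was 4.52 ± 0.71 (SE, n = 6 a group, adjusted p = 0.000783, limma). *Hk3* met the filter of 10 in 6 or more libraries through the iCreb5 group, since in tdTomato only 3c reached 10. The tdTomato 3a value lay below the 8.38 that 3 reads were worth in that library. With tdTomato values this low, the size of the change depends on the added 1. Leukocyte marker sums were 2678 to 11995 in iCreb5 and 653 to 1209 in tdTomato, and their part in *Hk3* was not tested. Of the genes not past the threshold, the largest means were those of *Bsg*, the chaperone of the lactate transporters MCT1 and MCT4, and *Pdhb*, a pyruvate dehydrogenase subunit. *Bsg* ran from 15941 to 21778 in iCreb5 and from 18097 to 23143 in tdTomato (change −0.09), and *Pdhb* from 4308 to 5691 in iCreb5 and from 4301 to 6459.8 in tdTomato (change 0.01).

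Of 40 symbols listed for other hypoxia response genes, 39 could be tested, since *Ero1a* stands in the table under its older symbol *Ero1l*. Of these 2 rose, 5.13%, and 4 fell, 10.3%, where 3.87% of all genes tested rose and 2.85% fell. The median change of the list was 0.04. *Cited2*, which limits HIF activity by competing for the co-activators CBP and p300, read 2448, 3273, 2588, 3835, 3561 and 3956 normalised counts in iCreb5. It read 1424, 2088, 1544, 1934, 1918 and 1766 in tdTomato. The groups did not overlap, and the change was 0.87 ± 0.14 (SE, n = 6 a group, adjusted p = 0.000993, limma). In litter 3 alone the change was 0.72 (adjusted p = 0.0595), and in litters 4 to 6 alone 1.01 (0.00269).

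The genes that fell included *P4ha1* and *P4ha2*, which encode catalytic alpha subunits of collagen prolyl 4-hydroxylase. *P4ha2* ran from 3721 to 5197 normalised counts in iCreb5 and from 4629.6 to 8366 in tdTomato (change −0.61 ± 0.14, SE, n = 6 a group, adjusted p = 0.0157, limma, and 0.109 in litters 4 to 6 alone). *P4ha1* ran from 4979 to 7199 in iCreb5 and from 6052 to 11314 in tdTomato (−0.48 ± 0.14, adjusted p = 0.0460, limma). The call of *P4ha1* rested on little margin: the adjusted p was above 0.05 when any 1 of the libraries other than tdTomato 5b was left out, between 0.0541 without iCreb5 6 and 0.113 without tdTomato 4a, and it was 0.00245 without tdTomato 5b. It was also above 0.05 with no filter (0.0919), with equal totals (0.124), in litters 4 to 6 alone (0.0615) and without iCreb5 5 and 6 (0.0956).

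*Higd1a*, a mitochondrial protein induced by hypoxia, ran from 2709 to 5138 normalised counts in iCreb5 and from 4202 to 8619 in tdTomato. Its change was −0.69 ± 0.18 (SE, n = 6 a group, adjusted p = 0.0242, limma). The adjusted p was 0.0609 without iCreb5 3a, 0.0509 without iCreb5 3b, 0.0595 without iCreb5 3c and 0.0556 without tdTomato 3b. It was 0.0502 with the litter block and litter 3 averaged, 0.141 in litters 4 to 6 alone and 0.0776 without tdTomato 3a and 5b. The other gene that fell was *Ero1l*, an oxidase of disulfide formation (−0.45, adjusted p = 0.0451), and the other that rose was *Mxi1*, a MYC antagonist (0.35, adjusted p = 0.0377). These last 2 are named after their values were seen, and both calls had little margin. Leaving out 1 library, *Ero1l* failed the threshold in 11 of 12 fits, with adjusted p up to 0.108 (without tdTomato 4a), and passed without tdTomato 5b (0.00289). It also failed with no filter (0.0721), with equal totals (0.124), with the block and litter 3 averaged (0.0582), in litter 3 alone (0.0914), in litters 4 to 6 alone (0.129) and without iCreb5 5 and 6 (0.100). *Mxi1* failed in 7 of 12 such fits, without iCreb5 3b (0.103), 4a (0.0723) or 6 (0.0943) and without tdTomato 3a (0.0642), 3b (0.0846), 3c (0.0743) or 6d (0.0627). It also failed with no filter (0.0550), with the block and litter 3 averaged (0.109), in litter 3 alone (0.180), in litters 4 to 6 alone (0.204), without iCreb5 5 and 6 (0.102) and without tdTomato 3a and 5b (0.0651). *Wsb1* and *Lox* had the largest means of those not past the threshold, with changes of 0.16 and 0.07. Chondrocyte marker sums were lower in every iCreb5 library than in any tdTomato library, and their part in the fall of these genes was not tested.

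**Figure D5:**
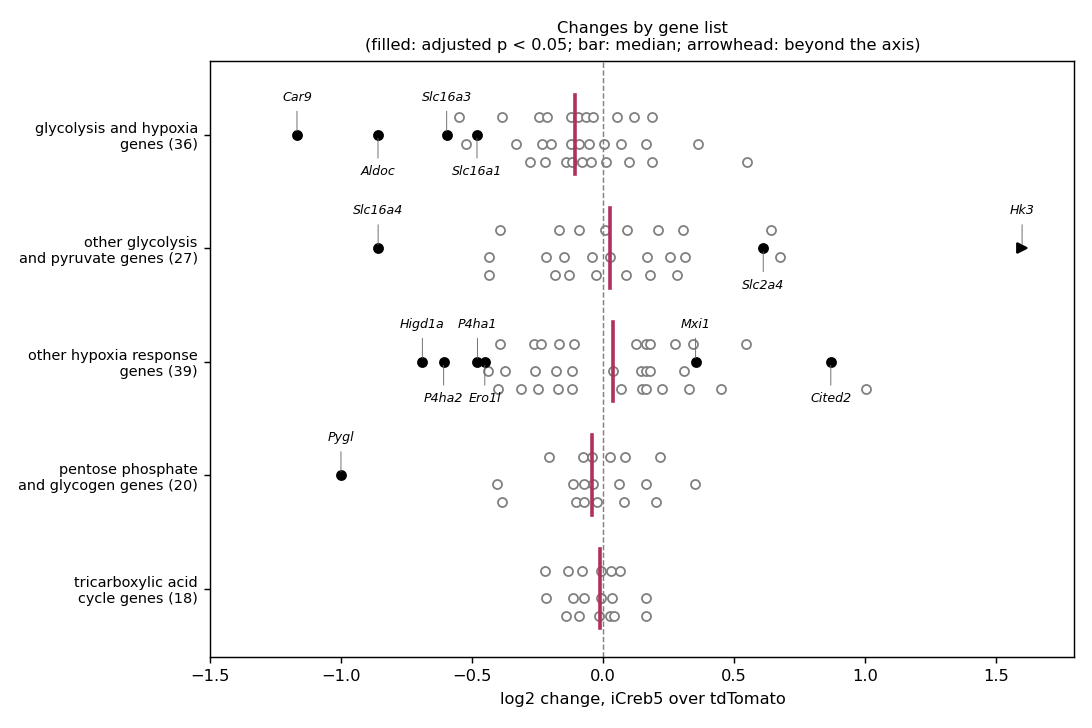
Log2 change, iCreb5 over tdTomato, of each tested gene in 5 lists, with the number tested in brackets; filled points have an adjusted p under 0.05 in limma, the bar is the list's median, and the arrowhead stands for *Hk3* at 4.52, beyond the axis. The set of 36 has its median at −0.11 with 4 genes lower, and the tricarboxylic acid cycle genes lie between −0.22 and 0.17 with none past the threshold. Over all genes tested 3.87% were higher and 2.85% lower.

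In neighbouring pathways of sugar and mitochondrial metabolism 1 gene passed the test. Of 20 genes of the pentose phosphate pathway and glycogen, 0 rose and 1 fell (5%). Over all genes tested 3.87% rose and 2.85% fell. The 1 gene was *Pygl*, liver glycogen phosphorylase. It read 389, 459.5, 316, 382, 384 and 389 normalised counts in iCreb5 and 927, 940.4, 1114, 887, 333 and 729.6 in tdTomato. Only the tdTomato library 5b reached into the iCreb5 range. The change was −1.001 ± 0.23 (SE, n = 6 a group, adjusted p = 0.0140, limma). The adjusted p was 0.0835 with the litter block and litter 3 averaged, and 0.221 in litters 4 to 6 alone. *Tkt*, transketolase, and *Ugp2*, which makes UDP-glucose, did not pass the test, at −0.11 and 0.08.

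Of 18 genes of the tricarboxylic acid cycle, 0 rose and 0 fell in limma, edgeR and DESeq2, and 0 had an unadjusted p under 0.05. In limma 3.87% of all genes tested rose and 2.85% fell, and 18.2% had an unadjusted p under 0.05. The median change of the 18 genes was −0.01. *Idh2*, isocitrate dehydrogenase of mitochondria, ran from 18109 to 21827 normalised counts in iCreb5 and from 15311 to 18585 in tdTomato, with a change of 0.17. *Mdh2*, malate dehydrogenase of mitochondria, ran from 7368 to 10879 in iCreb5 and from 6575 to 11136 in tdTomato, with a change of 0.03.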

How the data were processed

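Normalised read counts per gene (signal) were deposited by the authors. Per the submitters' processing notes, which give no version or role, the tools were FastQC, STAR, Salmon and DESeq2 and the build mm10. Libraries were made with Nextera XT, per the labels' protocols. Dividing each deposited signal column by its unit gave whole reads for 100% of values (tolerance 1e-06). The 8 columns of a deposited P0 table fit no sample's labels and stayed unused. Members and lists were chosen with earlier results of these data known. Under R 4.3.3, limma 3.58.1 with a trended eBayes was run on log2(value + 1) for the 16733 genes reaching 10 in 6 or more libraries, and was tested on simulated data. edgeR 4.0.16 and DESeq2 1.42.0 were run on recovered reads. The added 1 shrinks changes of weakly expressed genes, and counting floors cover counting error only. Values in every library are given for genes of the set past the threshold and for the gene of largest mean in each role. From each other list, the text names up to 4 genes past the threshold, by size of change, and the 2 of largest mean not past it. *Creb5*, *Slc2a3*, *Ero1l*, *Mxi1* and the overlapping genes are treated outside these rules.

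The labels give the litter of each library, so litter pairs libraries across groups and was fitted as a replicate block. Deviations from group means correlated with a median of 0.0732 (−0.242 to 0.346) over 12 pairs of the same litter and −0.0330 (−0.259 to 0.220) over 24 pairs of other litters. Leaving out tdTomato 3a and 5b, or iCreb5 5 and 6, was chosen after seeing the data. Levels per kilobase use GENCODE vM21 principal transcripts.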

Additional observations from a re-analysis of the deposited data

Results flagged for a closer look

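Of 104 groups of 6 libraries examined (52 genes in both groups), 5 held a library far from the other 5, about what chance gives at 1 in 20. *Aldoa* in tdTomato was at 12480 in library 3a, against 16449.5 to 18150.7 in the others. *Eno1* in tdTomato was at 53501.5 in 3b, against 34301.9 to 41319.9. *Epas1* in tdTomato was at 67.0658 in 4a, against 22.3356 to 37.0021. Outside the set, *P4ha1* in iCreb5 was at 4978.57 in library 5, against 6440.6 to 7199.07, and *Mdh2* in iCreb5 was at 10878.7 in library 5, against 7367.79 to 8524.58. Library 3a of tdTomato had the fewest reads, 9.02 M. None of the 3 genes of the set named here passed the test between groups.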

How the results depend on the processing

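The calls of the 36 genes were recomputed under 26 alternatives, and 0 genes of the set were called higher in any of them. Counts outside 1.5 times those reported were as follows. Litter 3 alone called 395 of all genes higher and 292 lower, and 0 of the other hypoxia response genes higher. Litters 4 to 6 alone called 320 of all genes higher, 1 gene of the set lower, 1 other glycolysis and pyruvate gene higher and 0 lower, and 1 other hypoxia response gene higher and 0 lower. Litter as a replicate block called 728 of all genes lower and 2 other glycolysis and pyruvate genes lower. The replicate block with litter 3 averaged called 2 of the set lower, 1 other glycolysis and pyruvate gene higher, 1 other hypoxia response gene higher and 2 lower, and 0 pentose phosphate and glycogen genes lower. Equal totals called 2 other hypoxia response genes lower, no filter 1 higher and 2 lower, and a value of at least 10 in all libraries 1 other glycolysis and pyruvate gene higher. Without tdTomato 3a and 5b, 1 other glycolysis and pyruvate gene was higher and 2 lower, and 1 other hypoxia response gene was higher, as it was without iCreb5 5 and 6. When 1 library was left out, the other glycolysis and pyruvate genes had 1 to 2 higher and 1 to 2 lower, and the other hypoxia response genes 1 to 3 higher and 1 to 4 lower. The cause of these moves was not tested, and single-litter fits hold fewer libraries.

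None of the log2 changes that turned sign had passed the test. *Pfkfb4* was at −0.0251 in DESeq2, −0.0228 in edgeR with RLE scaling and −0.0183 in edgeR with TMM scaling. Equal totals put *Pkm* at 0.0225, *Pdk1* at 0.0116, *Vegfa* at 0.00378 and *Ankrd37* at 0.0286. Litter 3 alone put *Hk1* at 0.174, *Gpi1* at −0.00421, *Pfkfb3* at 0.124, *Egln1* at −0.112, *Car12* at 0.0278, *Bnip3l* at −0.107, *Pdhb* at −0.0843, *Ugp2* at −0.134 and *Mdh2* at −0.0664. Litters 4 to 6 alone put *Hk2* at 0.00693, *Pfkm* at −0.142, *Pfkfb4* at −0.351, *Pkm* at 0.0680, *Epas1* at −0.196, *Vegfa* at 0.127, *Bnip3* at 0.0779, *Ankrd37* at 0.0879, *Bsg* at 0.00671 and *Lox* at −0.200. The block with litter 3 averaged put *Pfkm* at −0.0118, *Pfkfb4* at −0.171, *Pkm* at 0.0115, *Vegfa* at 0.0315, *Ankrd37* at 0.0247 and *Lox* at −0.0665. Without tdTomato 3a and 5b, *Pfkl* was at −0.0248, *Pfkp* at −0.0195, *Pfkfb4* at −0.0779 and *Mdh2* at −0.00708. Without iCreb5 5 and 6, *Hk1* was at 0.211, *Gpi1* at −0.0270, *Eno2* at 0.0631, *Hif1a* at 0.00707, *Car12* at 0.0581, *Bnip3l* at −0.134, *Pdhb* at −0.0417 and *Mdh2* at −0.0661. With 1 library left out, the ranges were −0.242 to 0.0993 for *Hk1*, −0.00820 to 0.273 for *Pfkp*, −0.0692 to 0.118 for *Pfkfb4*, −0.165 to 0.0209 for *Pdk1*, −0.0137 to 0.124 for *Egln1*, −0.0728 to 0.0737 for *Bnip3l*, −0.122 to 0.0511 for *Ankrd37*, −0.0399 to 0.0774 for *Pdhb*, −0.0441 to 0.252 for *Lox* and −0.0452 to 0.112 for *Mdh2*. Among the genes named, the replicate block over all 12 libraries changed the call of *Slc2a1* and no other. With litter 3 averaged it also ended the calls of *Car9*, *Aldoc*, *Slc16a3*, *Slc2a4*, *Higd1a*, *Pygl*, *Ero1l* and *Mxi1*, with the values given with the results. *Epas1*, at 81.8 normalised counts or fewer, had the lowest counts and the largest SE of the set, 0.36.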
